A study of Mus musculus with 24 samples.

Results

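The genes described here are 9 members of the epidermal growth factor (EGF) receptor system of the mouse: 3 receptors (Egfr, Erbb2 and Erbb3) and 6 ligands (Areg, Ereg, Hbegf, Tgfa, Btc and Nrg1). They were taken as a list by name, from 35855 genes to which the transcripts of the files were summed, by a rule that uses no measured value, though earlier results of these data were known when the list was made. Of the 9, 8 passed the filter on low counts, as did 12211 genes in all, and Ereg did not. RNA was sequenced from 24 libraries, each made from 1000 airway epithelial cells sorted from the trachea of naive wild-type female mice on the C57BL/6 background. No library was treated and no allele was altered. The libraries fall into 3 groups of 8: cells labelled BCAM HI and BCAM LO, called BCAM high and BCAM low here after the basal cell adhesion molecule, and cells labelled DIFFERENTIATED EPCS, called differentiated here. Replicates 1 to 5 of each group belong to batch 1 and replicates 6 to 8 to batch 2, and the labels do not say what a batch is. They also do not say whether replicates come from separate or pooled animals, so p-values measure the spread between these libraries, which may be technical. The libraries were prepared with SmartSeq2, a low-input protocol that copies polyadenylated RNA along its whole length.

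The EGF receptor family consists of receptor tyrosine kinases that pair upon binding a ligand. EGFR binds amphiregulin (Areg), epiregulin (Ereg), heparin-binding EGF-like growth factor (Hbegf), transforming growth factor alpha (Tgfa) and betacellulin (Btc). ERBB3 has a weak kinase and binds neuregulin 1 (Nrg1), and ERBB2 has no known ligand of its own and acts as the partner of the other receptors. The ligands are made as membrane proteins and released by proteases such as ADAM17, and the receptors pass the signal on through RAS and the ERK kinases, among other routes. Basal cells are the stem cells of the tracheal epithelium, and EGFR signalling is known to drive their proliferation after injury.

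Depth ranged from 1824619 to 4440072 estimated counts per library. Levels of 1 gene across libraries are given in CPM, the gene's count scaled to a common library total after TMM scaling. Bcam messenger RNA ranged from 324 to 739 CPM in the BCAM high libraries, from 224 to 457 CPM in the BCAM low libraries and from 109 to 907 CPM in the differentiated ones, so the 3 groups overlapped. The 10 basal markers summed to 8160–10728 CPM in BCAM high, 6876–8295 CPM in BCAM low cells and 290–2766 CPM in differentiated libraries, and Krt5, a defining basal keratin, reached at most 2.78 CPM in the last. The differentiated libraries also held RNA of another organ: 10 thyroid genes, led by Tg, summed to 13828–25986 CPM in batch 1 and 49558–117006 CPM in batch 2, against at most 1287 CPM in BCAM high and 243 CPM in BCAM low libraries. Their 10 secretory markers went the other way, from 297922–433581 CPM in batch 1 to 19181–122111 CPM in batch 2. In the differentiated group 5 of 10 ciliated markers were called higher and 0 lower in batch 2. Further lists had lower medians in batch 2 of that group. The basal sum went from 2220–2766 to 290–1106 CPM, and the suprabasal and hillock sum from 1658–2212 to 517–1052 CPM. The 14 immune markers summed to 18851–25335 CPM in batch 1 and 1482–14588 CPM in batch 2. Of the 5 immune markers tested, 2 were called higher and 1 lower in batch 2 (median log2 change -0.997), so the lower sum was not shared by all. The 4 parathyroid markers summed to 191–17822 and 3.70–243 CPM, and the 8 neuroendocrine markers to 486–11575 and 276–548 CPM. Only 1 parathyroid marker was tested, and it was called lower in batch 2. Of the 3 neuroendocrine markers tested, 2 were called higher and 1 lower in batch 2 (median log2 change 1.71). In the BCAM low libraries, batch 1 held a secretory sum of 34680–56548 CPM and batch 2 one of 120716–136410 CPM. The BCAM high libraries also shifted. Their secretory sum went from 28093–35115 to 56798–66163 CPM. Their thyroid sum went from 4.16–42.0 to 80.1–1287 CPM and their ciliated sum from 173–311 to 46.0–99.3 CPM. The part of such shifts in the members' changes between batches was not tested. Because of these shifts, the members' differences between groups are given over both batches and, for most, within each. Markers of other cells also differed between the basal groups. The 10 suprabasal and hillock markers summed to 507–1149 CPM in BCAM high and 1231–2600 CPM in BCAM low libraries, with 5 of 9 tested called lower in BCAM high cells, and the 10 ciliated markers summed to 46.0–311 and 331–711 CPM, with 6 of 10 called lower. The immune markers summed to 131–430 CPM in BCAM high and 559–2063 CPM in BCAM low libraries, with 1 of 5 tested called lower in BCAM high cells. The part of these lists in the members' differences between the basal groups was not tested. In sorted pools, fewer cells of a type and less RNA per cell cannot be told apart.

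Promoter sequences from RefSeq (build GRCm38.p6) matched 5 of the 9 members by symbol: Egfr, Erbb2, Areg, Tgfa and Btc. The 250 bases before the annotated start are shown for 3 of them, Egfr because it differed in all 3 comparisons, Areg because its level varied most with the batch, and Btc because its 2 basal groups lay below all differentiated libraries. Capitals mark matches to any of 5 motifs searched on both strands: the AP-1 site TGACTCA, the cyclic AMP response element TGACGTCA, the TEAD site GGAATG, the GC box GGGCGG and the TATA box TATAAA.
Egfr, chr11:16751953-16752202, + strand: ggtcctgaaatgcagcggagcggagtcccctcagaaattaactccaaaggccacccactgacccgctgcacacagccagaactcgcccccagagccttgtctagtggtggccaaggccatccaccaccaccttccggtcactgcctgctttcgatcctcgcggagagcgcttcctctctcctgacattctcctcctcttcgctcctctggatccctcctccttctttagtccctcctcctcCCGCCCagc
Areg, chr5:91139349-91139598, + strand: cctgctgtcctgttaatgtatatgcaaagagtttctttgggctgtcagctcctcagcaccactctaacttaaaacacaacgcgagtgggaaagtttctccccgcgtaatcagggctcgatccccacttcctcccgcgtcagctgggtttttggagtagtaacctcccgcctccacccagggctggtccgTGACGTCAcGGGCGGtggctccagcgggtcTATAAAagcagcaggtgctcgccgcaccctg
Btc, chr5:91402995-91403244, - strand: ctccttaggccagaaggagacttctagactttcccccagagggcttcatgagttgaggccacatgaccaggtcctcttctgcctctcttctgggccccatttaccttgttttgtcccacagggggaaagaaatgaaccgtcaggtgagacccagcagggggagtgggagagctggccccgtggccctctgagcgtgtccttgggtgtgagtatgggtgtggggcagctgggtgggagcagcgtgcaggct
The Areg window held 1 cyclic AMP response element, 1 GC box and 1 TATA box, the Egfr window held 1 GC box, and the Btc window held none of the 5 motifs. Over 32851 promoter windows of the same length, 1.55% held the cyclic AMP response element, 32.7% the GC box, 12.4% the TATA box, 12.6% the TEAD site and 4.46% the AP-1 site. These are matches of letters, and no binding was measured in this study.

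Across the 3 comparisons, the receptors and ligands did not move as a block. In BCAM high against BCAM low cells, 1 of the 8 tested members was higher (Egfr) and 2 were lower (Areg and Erbb2), where 7.02% of all tested genes were called (2.43% higher, 4.59% lower). Against differentiated cells, BCAM high cells had 3 members higher (Egfr, Hbegf and Nrg1) and 4 lower (Areg, Tgfa, Erbb2 and Btc), where 41.3% of all genes were called (19.4% higher, 22.0% lower). BCAM low cells had the same 3 higher and 1 lower (Btc) against differentiated cells, where 33.5% were called (16.3% higher, 17.1% lower). The median log2 fold change of the 8 was -0.43, -0.26 and 0.45 in these 3 comparisons, beside 8.78e-05, 0.024 and 0.023 over all tested genes. A call is an adjusted p under 0.05 from edgeR's quasi-likelihood test with batch as a covariate and Benjamini-Hochberg adjustment over all 12211 genes, and every adjusted p below is from that test unless another is named. The last 2 comparisons share the differentiated libraries, and each also shares a basal group with the first.

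**Figure D1:**
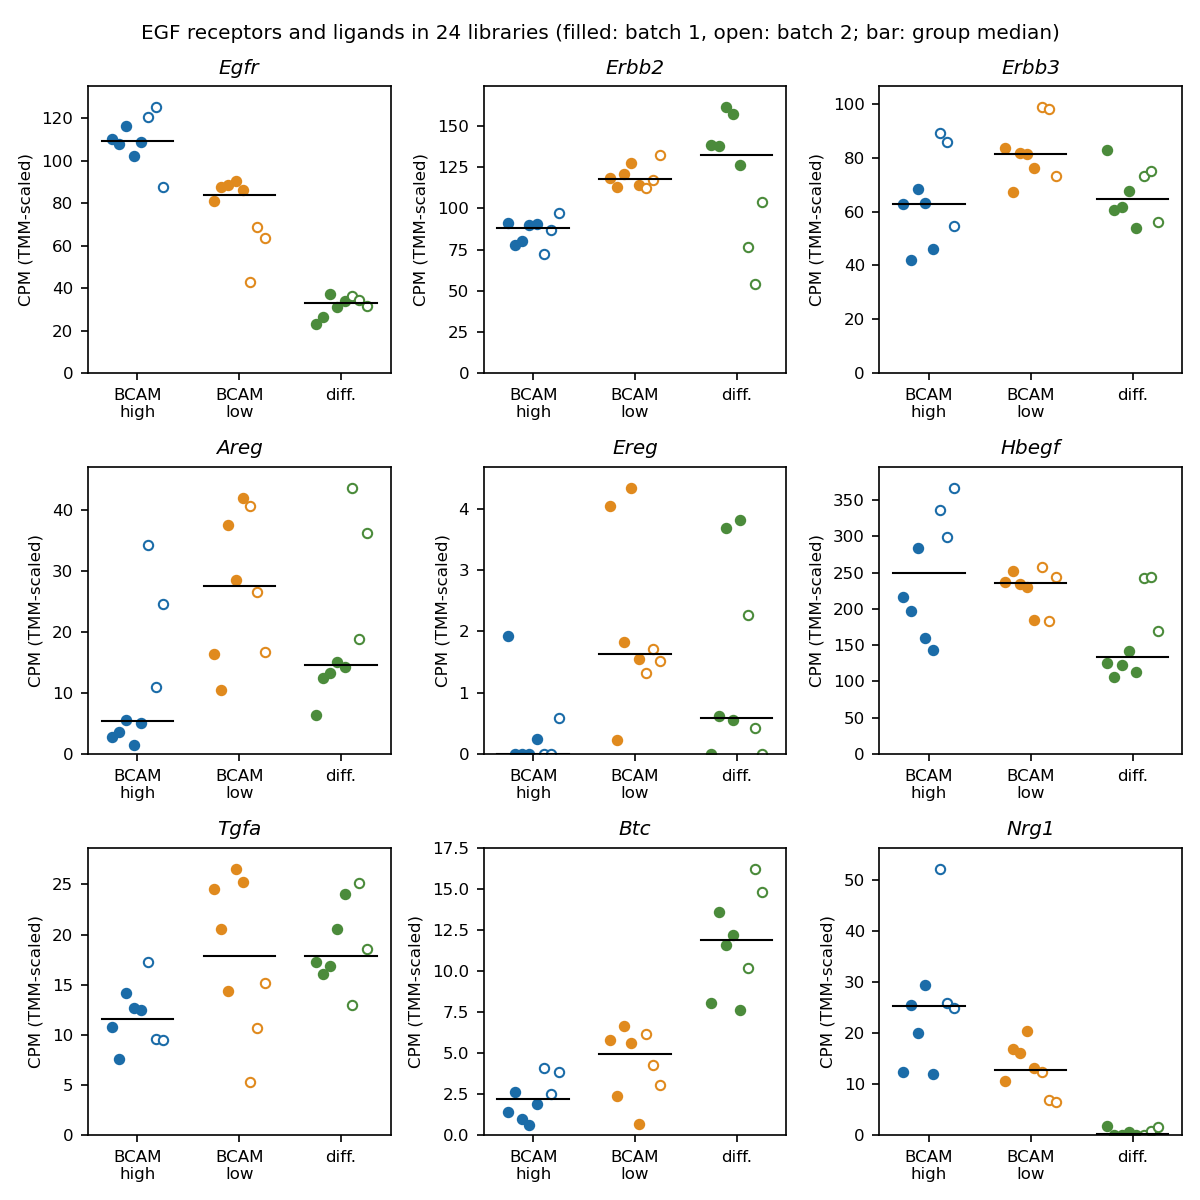
Each panel plots 1 member, with its level in CPM (linear axis from 0) in the 24 libraries by group. Filled points are batch 1, open points batch 2, and bars are group medians. Egfr and Nrg1 lie above all differentiated libraries in both basal groups, Btc lies below them, and Areg in BCAM high cells splits by batch (1.47–5.63 against 10.97–34.2 CPM).

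**Figure D2:**
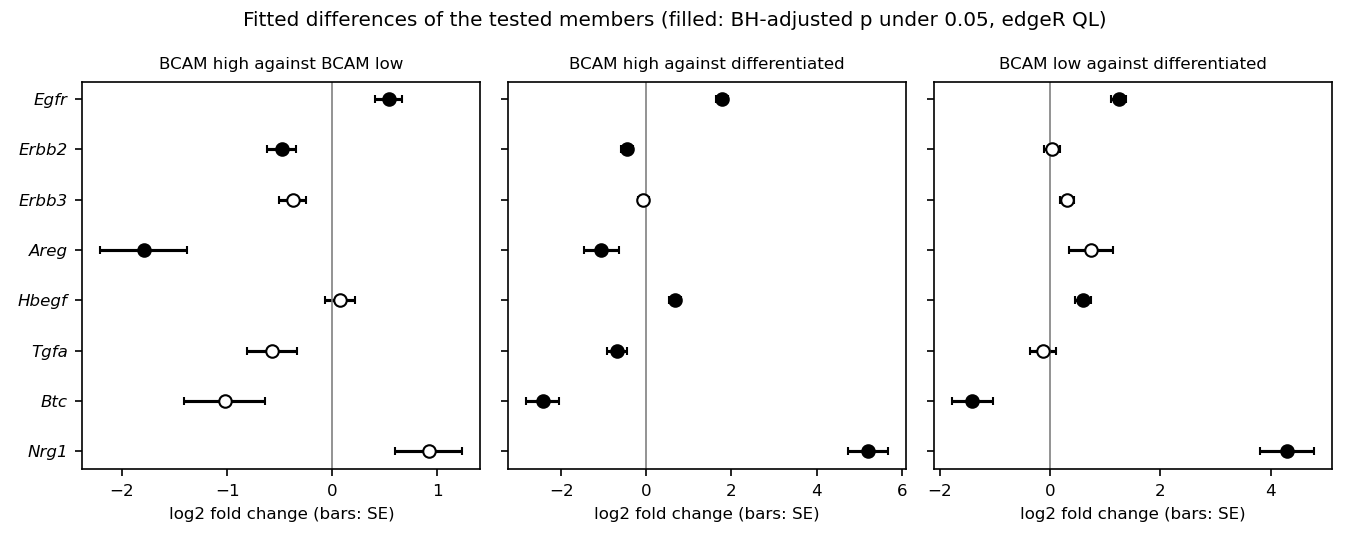
Log2 fold changes of the 8 tested members in the 3 comparisons, with bars of 1 SE and filled points for adjusted p under 0.05 by edgeR. The Nrg1 differences from differentiated cells (5.20 and 4.29) are the farthest from 0. Erbb2 and Tgfa, below 0 in BCAM high against differentiated cells, are above 0 there on the TPM scale, as the text gives.

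Egfr, the receptor shared by the 5 EGF-type ligands here, stepped down from BCAM high to BCAM low to differentiated cells. Its level was 87.8 CPM in the lowest, 109 in the median and 125 in the highest BCAM high library. The BCAM low libraries had 42.8, 83.7 and 90.5 CPM, and the differentiated ones 23.0, 32.8 and 37.5 CPM. Every library of either basal group was above every differentiated library. Of 12211 tested genes, 745 separated in this direction with BCAM high and 420 with BCAM low cells. Counted in either direction, the shares were 13.4% and 7.27%. The log2 fold change against differentiated cells was 1.78 for BCAM high (SE 0.13, adjusted p = 1.24e-11) and 1.246 for BCAM low cells (SE 0.13, adjusted p = 2.29e-08). Within batches 1 and 2 alone the BCAM high value was 1.84 and 1.70 (adjusted p = 2.15e-11 and 3.92e-05). Between the basal groups it was 0.54 (SE 0.13, adjusted p = 0.00830), and BCAM high exceeded BCAM low in 8 of 8 pairs of the same number.

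Within batch 1 the 2 basal groups stood at 102–116 and 81.1–90.5 CPM, and within batch 2 at 87.8–125 and 42.8–69.0 CPM, apart in each. For ranges apart within 1 batch, or between batches of 1 group, the share over all genes was not computed, here and below. Such ranges rest on 5 or 3 libraries and separate more easily than those of 8. The Egfr difference between the basal groups was 0.33 in batch 1 alone (SE 0.12, adjusted p = 0.117) and 0.92 in batch 2 alone (SE 0.21, adjusted p = 0.0206). A difference between batches was not called (0.60, SE 0.23, adjusted p = 0.251). The level in BCAM low cells was lower in batch 2 by a log2 change of -0.57 (SE 0.16, adjusted p = 0.0205, where 11.1% of all genes were called), the batch in which their secretory sum was higher. In that batch 9 of 10 ciliated markers were also called higher in BCAM low cells (median log2 change 4.23), and 4 of 9 suprabasal and hillock markers lower and 1 higher (median -1.13). The part of these lists in the Egfr value was not tested. Egfr in BCAM low against differentiated cells differed by batch, from 1.51 in batch 1 to 0.78 in batch 2 (difference -0.73, SE 0.24, adjusted p = 0.0433, where 11.4% of all genes were called). That last call was lost when any of 10 single libraries was left out (BCAM high replicate 1, BCAM low replicates 3, 4, 5 and 6, and differentiated replicates 1, 2, 4, 6 and 7), with values from -0.75 to -0.55 and adjusted p from 0.0504 to 0.169. The call between the basal groups ended without the batch 2 BCAM low libraries (0.31, adjusted p = 0.164), with offsets for transcript length (0.67, adjusted p = 0.258) and by limma on log2(TPM + 0.1) (1.02, adjusted p = 0.0995). The length offsets also ended the call of BCAM low against differentiated cells (0.50, adjusted p = 0.287).

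Erbb2, the ligand-less partner receptor, was lower in BCAM high than in BCAM low cells in every library. It ranged over 72.1–97.2 CPM (median 88.1) in BCAM high and 112–133 CPM (median 118) in BCAM low libraries, a log2 fold change of -0.48 (SE 0.14, adjusted p = 0.0298). Of all tested genes, 1.499% separated these groups completely, 61 of them higher and 122 lower in BCAM high cells. The difference was -0.46 in batch 1 alone (SE 0.11, adjusted p = 0.0103) and -0.50 in batch 2 alone (SE 0.21, adjusted p = 0.250). The call was near its threshold: leaving out BCAM high replicate 1, 2 or 3 or BCAM low replicate 6, 7 or 8 gave -0.48 to -0.43 with adjusted p from 0.0506 to 0.0658. It also ended with length offsets (-0.36, adjusted p = 0.253), without the batch covariate (-0.48, adjusted p = 0.0693), without the batch 2 BCAM low libraries (-0.30, adjusted p = 0.344) and by limma on log2(TPM + 0.1) (-0.11, adjusted p = 0.760).

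The differentiated libraries split by batch in Erbb2. Those of batch 1 had 127–161 CPM and those of batch 2 had 54.2–104 CPM, with no overlap (log2 change -0.88, SE 0.16, adjusted p = 1.33e-04, where 20.1% of all genes were called). The same change was not called in the 2 basal groups, at -0.0098 in BCAM high (SE 0.15, adjusted p = 0.981) and 0.022 in BCAM low cells (SE 0.15, adjusted p = 0.953). BCAM high cells were below differentiated cells by -0.45 over both batches (SE 0.14, adjusted p = 0.0111), by -0.75 in batch 1 alone (SE 0.11, adjusted p = 5.59e-06), and at 0.13 in batch 2 alone (SE 0.21, not called), and on the TPM scale the pooled value was 0.39, or -0.37 relative to the median gene. The call also ended with no filter on low counts (-0.35, adjusted p = 0.0504) and with length offsets (-0.38, adjusted p = 0.0893). Relative to differentiated cells, BCAM low cells had 0.034 over both batches (adjusted p = 0.876), -0.28 in batch 1 and 0.63 in batch 2. Both dependences on the batch were called, at 0.87 (SE 0.22, adjusted p = 0.00840, where 8.69% of all genes were called) for BCAM high and 0.90 (SE 0.22, adjusted p = 0.00503) for BCAM low cells. Without differentiated replicate 7 the former was 0.66 (adjusted p = 0.0534). The thyroid sum was higher and the secretory and immune sums were lower in the same batch 2 libraries, in the ranges given above. Of 5 tested immune markers, 2 were called higher and 1 lower there. The medians of the parathyroid and neuroendocrine sums were also lower there, though 2 of 3 tested neuroendocrine markers were called higher and 1 lower. The basal sum and the suprabasal and hillock sum were lower there too. The part of these lists in the Erbb2 values was not tested.

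Erbb3, a neuregulin receptor, had no called difference between groups in the fit with batch as covariate. With the replicate number as a block instead, BCAM low cells were called higher than each other group, as the last paragraph gives. That fit is 1 of 13 alternative settings that do not leave out single libraries. Of these 13, 2 gave a call for BCAM high against low and 5 for BCAM low against differentiated cells. Its lowest, median and highest levels were 42.0, 63.0 and 89.4 CPM in BCAM high libraries, 67.2, 81.5 and 98.8 CPM in BCAM low ones and 54.0, 64.7 and 82.9 CPM in differentiated ones, and all 3 ranges overlapped. BCAM low exceeded BCAM high in 8 of 8 same-numbered pairs and differentiated in 8 of 8. Neither difference passed the threshold: BCAM high against low was -0.38 (SE 0.13, adjusted p = 0.0772) and BCAM low against differentiated 0.31 (SE 0.13, adjusted p = 0.0690). Both were near the threshold, since leaving out BCAM high replicate 6 or 7 gave -0.44 and -0.43 (adjusted p = 0.0432 and 0.0489), and leaving out BCAM low replicate 8 or differentiated replicate 1 gave 0.35 and 0.38 (adjusted p = 0.0433 and 0.0272). Within batches 1 and 2 alone, BCAM high against low was -0.46 and -0.24 (adjusted p = 0.0677 and 0.686), and BCAM low against differentiated 0.25 and 0.40 (adjusted p = 0.217 and 0.245). BCAM high against differentiated cells was at -0.067 (SE 0.13, adjusted p = 0.724), and at 0.67 on the TPM scale, or -0.08 relative to the median gene. On the same scale BCAM low against differentiated cells was at 0.88, or 0.40 relative to the median gene.

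Nrg1, the ERBB3 ligand of the list, was higher in both basal groups than in differentiated cells. BCAM high libraries had 12.0 (lowest), 25.2 (median) and 52.1 CPM (highest), and BCAM low libraries 6.56, 12.7 and 20.4 CPM. The 8 differentiated libraries together held 10 estimated counts. In 4 of them the count was 0, which allows up to 1.58–1.86 CPM at 3 counts per library, and the other 4 had 1 to 4 counts, or 0.56–1.73 CPM. Every basal library was above this range. The fitted log2 fold change was 5.20 for BCAM high (SE 0.48, adjusted p = 5.40e-10) and 4.29 for BCAM low cells (SE 0.49, adjusted p = 7.10e-08), values that depend on how the fit treats counts this near 0.

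Between the basal groups Nrg1 was 0.91 higher in BCAM high cells on the log2 scale, which was not called (SE 0.32, adjusted p = 0.0849), with 7 of 8 same-numbered pairs in that direction. In batch 1 the ranges were 12.0–29.4 and 10.6–20.4 CPM and overlapped. In batch 2 they were 24.9–52.1 and 6.56–12.4 CPM and did not, with 3 libraries in each group. The difference was 0.37 in batch 1 alone (SE 0.32, adjusted p = 0.552) and 1.98 in batch 2 alone (SE 0.46, adjusted p = 0.0209), and the dependence on batch was not called (1.62, SE 0.57, adjusted p = 0.211). With DESeq2's Wald test on the same design the pooled difference was called (0.92, adjusted p = 0.0421). The 7 Schwann cell and neuron markers, another source of Nrg1 transcripts in a trachea, summed to 6.52–18.4 CPM in BCAM high, 4.29–21.9 in BCAM low cells and 6.86–43.1 CPM in differentiated libraries. The 8 fibroblast markers summed to 176–676 (median 426), 67.5–386 (264) and 0.823–308 CPM (57.1) in these groups. Of 4 tested, 1 was called higher and 3 lower in BCAM high against differentiated cells, and 0 between the basal groups. The part of these 2 lists in the Nrg1 values was not tested.

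Hbegf, the heparin-binding EGFR ligand, was the most abundant member by median TPM in all 3 groups. It ranged over 144–366 CPM (median 250.2) in BCAM high, 183–258 CPM (median 236) in BCAM low cells and 106–244 CPM (median 134) in differentiated libraries. Against differentiated cells it was higher in BCAM high (0.67, SE 0.15, adjusted p = 4.23e-04) and in BCAM low cells (0.60, SE 0.15, adjusted p = 0.00207). Between the basal groups it differed by 0.071 (SE 0.14, adjusted p = 0.843), with -0.18 in batch 1 alone and 0.55 in batch 2 alone, neither called (adjusted p = 0.514 and 0.125).

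Hbegf was also 1 of 2 members called between batches over all groups (0.54, SE 0.12, adjusted p = 0.00202, where 21.4% of all genes were called), the other being Areg. In BCAM high libraries it went from 144–284 CPM in batch 1 to 299.6–366 CPM in batch 2 (0.74, SE 0.17, adjusted p = 0.00497, where 8.04% of all genes were called). In differentiated libraries it went from 106–142 to 169–244 CPM (0.84, SE 0.17, adjusted p = 5.65e-04). The BCAM low libraries overlapped, with 185–253 CPM in batch 1 and 183–258 CPM in batch 2. BCAM low against differentiated cells gave 0.90 in batch 1 (SE 0.15, adjusted p = 2.87e-05) and 0.061 in batch 2 (SE 0.18, adjusted p = 0.876), and this dependence was called (-0.84, SE 0.24, adjusted p = 0.0219). It was lost without BCAM low replicate 7 or without differentiated replicate 6 or 7 (-0.76 to -0.70, adjusted p from 0.0728 to 0.0895). For BCAM high against differentiated cells both batches gave a call, at 0.72 and 0.61 (adjusted p = 3.45e-04 and 0.0211).

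Areg, an EGFR ligand known to be induced quickly in epithelia, was lower in the BCAM high libraries of batch 1 than in all other basal libraries. Its 5 values there were 2.75, 3.68, 5.63, 1.47 and 5.04 CPM for replicates 1 to 5, from 5 to 23 estimated counts. The 3 batch 2 libraries of the same group had 34.2, 10.97 and 24.6 CPM. BCAM low libraries ranged over 10.4–41.9 CPM in batch 1 and 16.6–40.6 CPM in batch 2. The differentiated ones ranged over 6.34–14.9975 CPM in batch 1 and 18.8–43.5 CPM in batch 2. BCAM high and BCAM low cells did not overlap in batch 1 and did in batch 2.

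Over both batches Areg was lower in BCAM high than in BCAM low cells by -1.80 (SE 0.41, adjusted p = 0.00793), with -2.83 in batch 1 alone (SE 0.37, adjusted p = 1.58e-05) and -0.27 in batch 2 alone (SE 0.44, adjusted p = 0.858). The dependence on batch was called (2.56, SE 0.62, adjusted p = 0.0381, where 1.06% of all genes were called). It was lost when any of 11 libraries was left out (BCAM high replicates 1, 2, 4, 6 and 8, BCAM low replicates 3, 4, 5, 7 and 8, and differentiated replicate 2), with 2.19 to 2.56 and adjusted p from 0.0509 to 0.137. Without a batch covariate the pooled difference was -1.32 and not called (adjusted p = 0.153). BCAM high against differentiated cells was -1.05 (SE 0.41, adjusted p = 0.0420), with -1.69 in batch 1 alone (adjusted p = 0.00139) and -0.48 in batch 2 alone (adjusted p = 0.459). That call was lost when any of BCAM high replicates 1, 2, 3, 4, 5 and 7 or differentiated replicates 2, 3, 4, 5, 6 and 8 was left out (-1.06 to -0.91, adjusted p from 0.0556 to 0.0926). The same call was also lost in 6 of 13 other alternative settings, batch 2 alone among them. BCAM low against differentiated cells was 0.74 and not called (adjusted p = 0.157), with 1.14 in batch 1 alone (adjusted p = 0.0151) and -0.22 in batch 2 alone (adjusted p = 0.804). Within groups, batch 2 exceeded batch 1 by 2.62 in BCAM high cells (SE 0.45, adjusted p = 5.31e-04) and by 1.41 in differentiated cells (SE 0.44, adjusted p = 0.0219), against 0.054 in BCAM low cells (SE 0.41, adjusted p = 0.959).

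**Figure D3:**
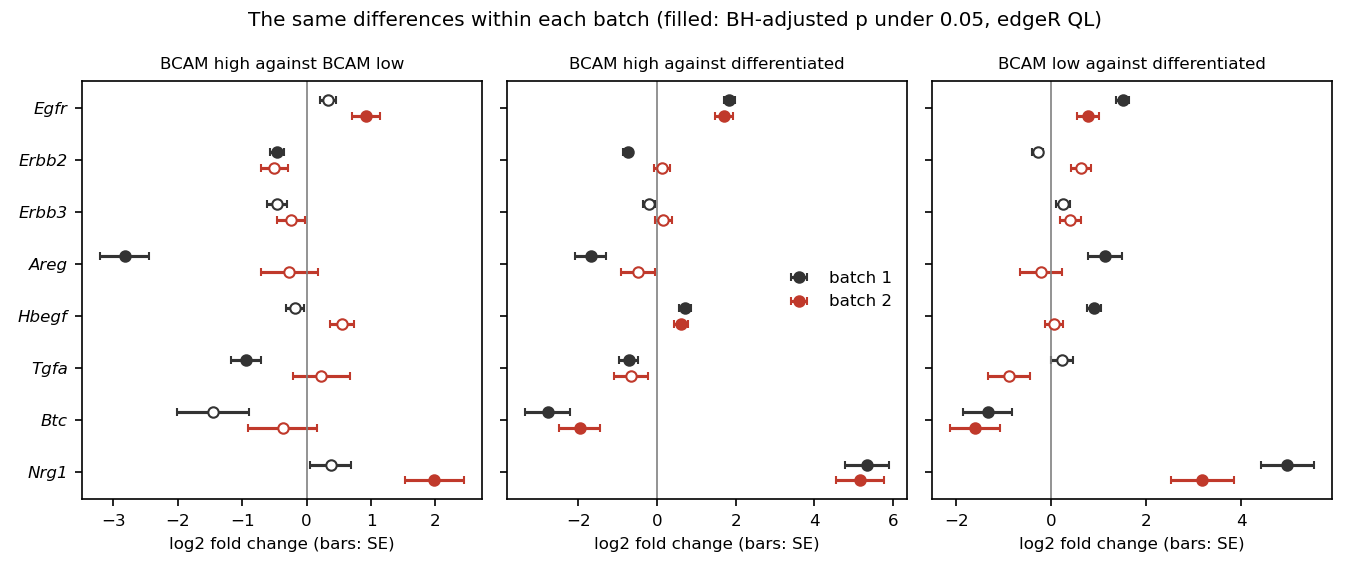
Log2 fold changes of the 8 tested members fitted within batch 1 (black) and within batch 2 (red), with bars of 1 SE and filled points for adjusted p under 0.05 by edgeR. Areg in BCAM high against BCAM low cells is at -2.83 in batch 1 and -0.27 in batch 2, and Erbb2 against differentiated cells lies on opposite sides of 0 in the 2 batches.

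Tgfa, an EGFR ligand of many epithelia, ranged over 7.62–17.2 CPM (median 11.6) in BCAM high, 5.29–26.5 CPM (median 17.9) in BCAM low cells and 13.0–25.2 CPM (median 17.9) in differentiated libraries. BCAM high cells were below differentiated cells by -0.69 (SE 0.24, adjusted p = 0.0211), though on the TPM scale the value was 0.39, or -0.36 relative to the median gene. The same difference was -0.71 in batch 1 alone (adjusted p = 0.0233) and -0.65 in batch 2 alone (adjusted p = 0.286). The call ended without differentiated replicate 7 (-0.57, adjusted p = 0.0630), without all batch 2 differentiated libraries (-0.49, adjusted p = 0.188) and with length offsets (-0.26, adjusted p = 0.538). BCAM high against BCAM low was -0.57 and not called (SE 0.24, adjusted p = 0.156). In batch 1 alone it was -0.94 and called (SE 0.23, adjusted p = 0.0132), with no overlap, and in batch 2 alone 0.22 (SE 0.44, adjusted p = 0.886). Within BCAM low cells Tgfa was lower in batch 2 (-1.11, SE 0.33, adjusted p = 0.0254, where 11.1% of all genes were called). The batch 2 libraries of this group held 12 to 30 Tgfa counts each. Their secretory, ciliated and suprabasal markers also differed from batch 1, as given for Egfr, and the part of these lists was not tested.

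Btc, a ligand of EGFR and ERBB4, was highest in differentiated cells. It ranged over 0.59–4.08 CPM (median 2.20) in BCAM high, 0.66–6.63 CPM (median 4.95) in BCAM low cells and 7.64–16.2 CPM (median 11.9) in differentiated libraries. All differentiated libraries exceeded all basal ones in both batches. The log2 fold change was -2.43 for BCAM high (SE 0.39, adjusted p = 7.93e-06) and -1.41 for BCAM low cells (SE 0.37, adjusted p = 0.00378). Batches 1 and 2 alone gave -2.78 and -1.97 for BCAM high (adjusted p = 2.73e-04 and 0.00931) and -1.33 and -1.60 for BCAM low cells (adjusted p = 0.0491 and 0.0452). These rest on few reads: 62 and 117 summed counts in the basal groups and 186 in the differentiated one. The call for BCAM low cells ended with length offsets (-1.23, adjusted p = 0.0675) and by limma on log2(TPM + 0.1) (-1.10, adjusted p = 0.0812) and log2(TPM + 1) (-0.79, adjusted p = 0.0535). BCAM high against BCAM low was -1.02 and not called (SE 0.39, adjusted p = 0.112), and without BCAM low replicate 5 it was -1.18 (adjusted p = 0.0425).

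Ereg, a ligand of EGFR and ERBB4 that lies next to Areg in the mouse genome, was near the detection limit and was not tested. The summed counts were 10 in BCAM high, 59 in BCAM low cells and 21 in differentiated libraries. It was at 0 counts in 5 BCAM high libraries, which allows up to 0.73–1.06 CPM each, and reached 1.93, 4.33 and 3.82 CPM in the highest library of the 3 groups. BCAM low exceeded BCAM high in 8 of 8 same-numbered pairs, with overlapping ranges.

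The other 6 members of the family on a list fixed beside the 9, which hold the fourth receptor and further ligands, all failed the filter. Erbb4 had 53, 33 and 93 summed counts in BCAM high, BCAM low and differentiated libraries. Egf, the founding ligand, had 32, 49 and 99. The neuregulins followed other orders, with 44, 69 and 2 counts for Nrg2, 23, 40 and 16 for Nrg3 and 56, 39 and 16 for Nrg4. Epgn, an EGFR ligand, had 0 counts in all BCAM high and all differentiated libraries, which allows at most 1.06 and 1.86 CPM in a library, and 6 counts in BCAM low libraries. Within the differentiated group, Erbb4 ranged over 0.62–8.97 CPM (median 2.78) in batch 1 and 6.21–11.9 CPM (median 8.11) in batch 2. Egf ranged over 1.58–6.67 CPM (median 5.46) and 2.56–13.99 CPM (median 9.04). The batch 2 libraries are those with the larger thyroid sums and the smaller secretory and immune sums, whose part in these levels was not tested.

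For levels between genes, the deposited TPM values, which divide by transcript length as well as depth, were summed per gene. Hbegf came first in each group, with a median of 127 TPM in BCAM high, 92.6 TPM in BCAM low cells and 45.5 TPM in differentiated libraries, and was above the next gene in 8 of 8 libraries of each. In BCAM high cells Egfr (35.1 TPM), Erbb2 (23.6), Erbb3 (11.4), Nrg1 (11.3), Areg (5.31), Tgfa (3.53), Btc (0.86) and Ereg (0) followed by median TPM. Erbb3 and Nrg1 exceeded each other in 4 of 8 libraries and so had no order, and neither did Nrg1 and Areg. The place of Areg depends on the batch, with a median of 3.48 TPM in batch 1 and 28.4 TPM in batch 2, where Erbb2 had 26.4, Erbb3 18.4 and Nrg1 13.0 TPM (3 libraries). Among receptors, Egfr led in BCAM high cells (above Erbb2 in 7 of 8 libraries), and Erbb2 led in differentiated cells (17.7 against 8.80 TPM, above in 7 of 8). In BCAM low cells neither led in both batches: Erbb2 and Egfr had medians of 24.8 and 25.1 TPM in batch 1 and of 24.2 and 21.3 TPM in batch 2, with ranges overlapping. Areg took the third place in BCAM low cells with 24.04 TPM, with ranges overlapping those of Erbb2 and Egfr. In differentiated cells Btc (4.19 TPM) stood above Tgfa (2.84 TPM) in 7 of 8 libraries.

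Of the summed TPM of the 5 EGFR ligands, Hbegf held a median of 93.1% in batch 1 and 84.9% in batch 2 of BCAM high cells. In BCAM low cells it held 72.8% and 74.7%, and in differentiated cells 71.5% and 69.0%. Areg held 3.28% and 12.4% in BCAM high, 18.9% and 20.95% in BCAM low cells and 12.9% and 26.2% in differentiated cells. The Btc share had medians of 8.42% and 7.90% in differentiated cells, where it ranged over 5.62–11.1% in batch 1 and 2.48–9.69% in batch 2, and the basal libraries ranged over 0.209–4.12%, so that differentiated replicate 6 (2.48%) lay among them. Within batch 1 the Hbegf share of BCAM high libraries (87.6–94.3%) lay above that of all BCAM low (65.0–85.8%) and all differentiated libraries (66.8–79.2%).

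By annotated transcript, the receptors were not uniform. Kallisto divides reads that transcripts share by a model, so these are estimates, and they are given as shares of summed counts with no test. Of the 5 Egfr transcripts, Egfr-201, a coding form of 10208 bases, held 77.4% in BCAM high, 82.5% in BCAM low cells and 53.9% in differentiated cells. Egfr-202, a coding form of 2943 bases, held 16.4%, 12.2% and 33.8%. In CPM, Egfr-202 had a median of 18.8 in BCAM high, 8.93 in BCAM low cells and 10.5 in differentiated libraries, so the difference in Egfr counts between BCAM low and differentiated cells lay in Egfr-201 (medians 66.9 and 16.8 CPM, ranges apart). The length offsets named above use each gene's effective length, which moves with this split.

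Erbb2 counts fell on 2 forms of similar length: Erbb2-201, the coding transcript, and Erbb2-202, annotated as a processed transcript. Erbb2-201 held 52.3% in BCAM high, 73.6% in BCAM low cells and 47.5% in differentiated cells, with mean levels of 44.0 ± 17.7, 83.2 ± 27.6 and 56.8 ± 20.01 CPM (SD, n = 8). Erbb2-202 had 41.0 ± 23.3, 36.0 ± 26.4 and 61.6 ± 33.0 CPM (SD, n = 8). The split varied widely between libraries of a group: Erbb2-201 held 17.7–77.2% in BCAM high, 43.3–100% in BCAM low cells and 19.9–69.1% in differentiated libraries. Hbegf was carried by its coding form Hbegf-201 at 88.8%, 90.4% and 81.7%. Its retained-intron form Hbegf-202 held 10.4%, 9.36% and 16.8%. Nrg1, with 18 annotated transcripts, had 46.7% of its counts on retained-intron forms in BCAM high and 28.7% in BCAM low cells. Areg, Ereg and Erbb3 have 1 transcript each.

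**Figure D4:**
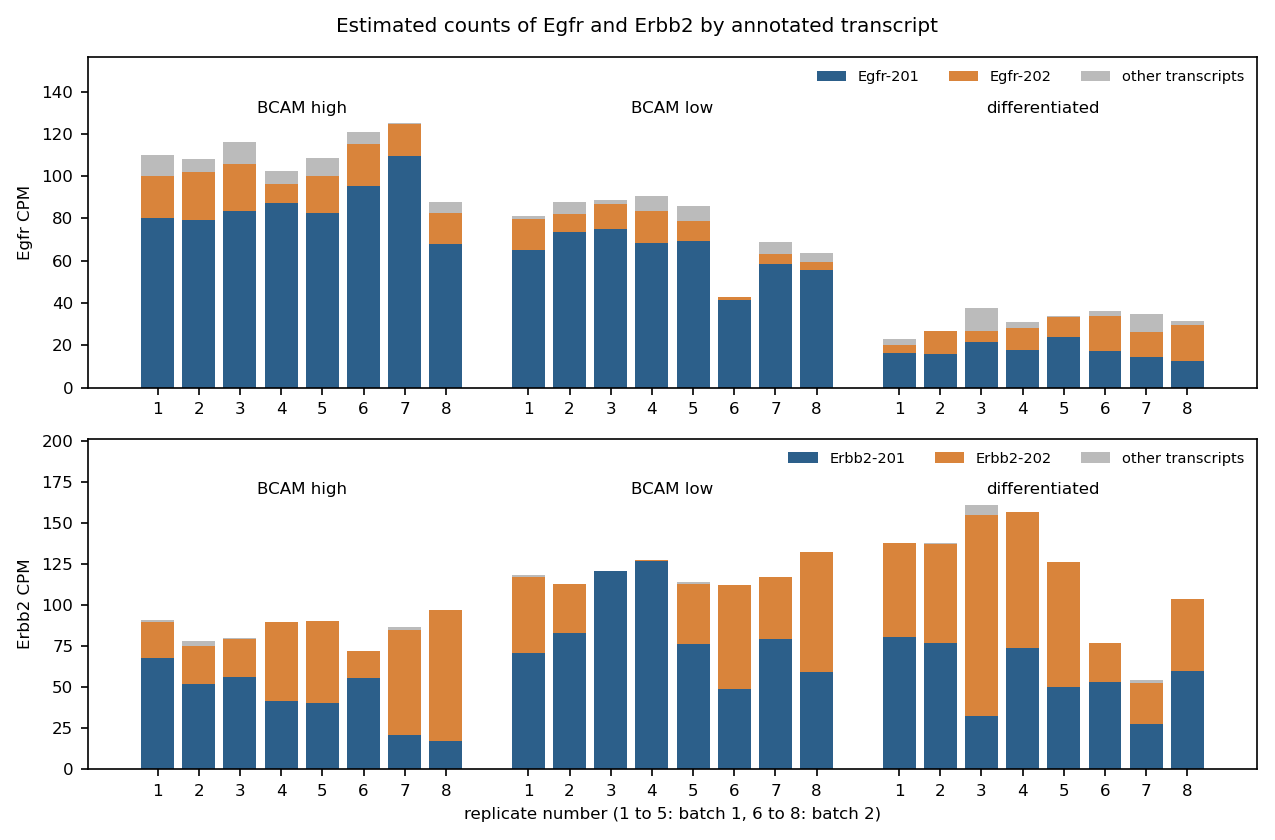
Stacked bars give CPM per library from annotated transcripts of Egfr (upper) and Erbb2 (lower), with replicates 1 to 8 of each group on the x axis. The coding form Egfr-201 makes up most of each basal bar, and the split between Erbb2-201 and Erbb2-202 varies from library to library.

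Among the proteases and cofactors that release ligands, no difference between the basal groups was called. Of 10 genes listed, 9 were tested and 0 were called in BCAM high against BCAM low cells by edgeR or DESeq2, with 3 at an unadjusted p under 0.05 (median log2 fold change -0.067) and 7.02% of all genes called. Values for this and the following lists are over both batches unless a batch is named. Against differentiated cells, 2 were higher and 2 lower in BCAM high (median -0.17), a share near the 41.3% of all genes called there. Adam17 and Adam10, the main ligand sheddases, were 0.47 (SE 0.18, adjusted p = 0.0422) and 0.31 (SE 0.12, adjusted p = 0.0342) higher. Timp3, an inhibitor of ADAM17, was -1.61 (SE 0.44, adjusted p = 0.00521) and Nrd1 (Nrdc), an enhancer of shedding, -0.64 (SE 0.14, adjusted p = 4.31e-04). In BCAM low against differentiated cells (33.5% of all genes called) 2 were higher, among them Rhbdf1, a partner of ADAM17 (0.48, SE 0.14, adjusted p = 0.00780), and 1 was lower, Timp3 (-2.58, SE 0.45, adjusted p = 1.27e-04). Timp3 itself was higher in batch 2 of the differentiated group (1.43, adjusted p = 6.75e-05) and lower in batch 2 of the basal groups (-1.47 and -1.61, adjusted p = 5.63e-04 and 1.63e-04). Its differences from differentiated cells depended on the batch (batch 2 minus batch 1: -2.90 for BCAM high and -3.04 for BCAM low, adjusted p = 5.34e-06 and 3.17e-06), as did that of Adam10 for BCAM high (0.66, adjusted p = 0.0447).

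Of 30 genes that carry the signal inside the cell, all tested, 0 were higher and 2 lower in BCAM high against BCAM low cells by edgeR (median -0.11), where 7.02% of all genes were called. At an unadjusted p under 0.05 these counts were 0 and 6, and DESeq2 called 0 and 3. Map2k2, which encodes the ERK kinase MEK2, was among the lower ones (-0.82, SE 0.19, adjusted p = 0.00830). Against differentiated cells, 8 were higher and 7 lower in BCAM high (median 0.14) and 9 and 4 in BCAM low cells (median 0.25), beside 41.3% and 33.5% of all genes called. The adaptor Gab2 was lower in both (-3.06 and -1.73, adjusted p = 2.81e-06 and 0.00223), as was the kinase Akt2 (-1.22 and -1.17, adjusted p = 7.37e-08 and 3.49e-07). The Akt2 differences depended on the batch (-0.91 and -1.10, adjusted p = 0.00333 and 4.28e-04). Pik3r1, a regulatory subunit of PI3 kinase, was higher in BCAM high (0.98, adjusted p = 4.22e-04) and Hras in BCAM low cells (1.17, adjusted p = 2.29e-04). Of 16 genes of receptor uptake and sorting, 0 were called between the basal groups by edgeR or DESeq2, with 2 at an unadjusted p under 0.05. Of the same 16, 2 were higher and 4 lower in BCAM high against differentiated cells, and 1 and 3 in BCAM low, shares under the 41.3% and 33.5% of all genes called. Among them Eps15l1, an endocytic adaptor, was higher (0.62 and 0.47, adjusted p = 1.03e-04 and 0.00294) and Tsg101, which sorts receptors for degradation, lower (-0.62 and -0.42, adjusted p = 3.91e-05 and 0.00398).

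Among 23 negative regulators of the pathway, of which 22 were tested, 3 feedback inhibitors were higher in BCAM high than in BCAM low cells. In BCAM high against BCAM low cells 3 were higher and 2 lower (median 0.056), with 7.02% of all genes called. Dusp6, an ERK phosphatase, was 0.66 higher (SE 0.13, adjusted p = 0.00221), Spry1 0.79 (SE 0.23, adjusted p = 0.0326) and Spry2 0.65 (SE 0.13, adjusted p = 0.00184), the last 2 being inhibitors of RAS signalling. Cblc, a ubiquitin ligase of EGFR, was -0.85 (SE 0.23, adjusted p = 0.0231) and Ptprj, a receptor phosphatase, -0.66 (SE 0.20, adjusted p = 0.0389). Against differentiated cells 8 were higher and 4 lower in BCAM high (median 0.40) and 10 and 2 in BCAM low cells (median 0.54), with 41.3% and 33.5% of all genes called. Mean levels of Dusp6 were 374, 233 and 120 CPM in BCAM high, BCAM low and differentiated libraries, and those of Spry2 were 122, 77.5 and 30.5 CPM. For BCAM high the log2 fold changes were 2.05 for Spry2 (adjusted p = 1.55e-12), 2.01 for Spred2 (adjusted p = 2.82e-08), 1.89 for Spry1 (adjusted p = 6.66e-07) and 1.67 for Dusp6 (adjusted p = 5.74e-11). Errfi1, an inhibitor that binds the EGFR kinase, went the other way (-0.78, adjusted p = 0.0153) and is named after its value was seen. In BCAM low against differentiated cells the differences of Spry1 and Spry2 depended on the batch (-1.50 and 0.76, adjusted p = 0.0177 and 0.0432). Dusp6 was lower in batch 2 in each of the 3 groups (-0.92, -0.70 and -1.15, adjusted p = 0.00176, 0.0112 and 6.72e-05).

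Of 20 genes that respond to ERK activity, 18 were tested. In BCAM high against BCAM low cells 4 were higher and 0 lower by edgeR and by DESeq2, against 7 and 1 at an unadjusted p under 0.05 (median 0.37; 7.02% of all genes called): Egr2 (0.78, SE 0.23, adjusted p = 0.0421), Ier3 (0.51, SE 0.15, adjusted p = 0.0342), Fos (0.45, SE 0.11, adjusted p = 0.00936) and Jun (0.43, SE 0.12, adjusted p = 0.0246). These are immediate early genes that cell isolation can also raise: 15 genes of an immediate early and stress list, which holds Fos, Jun and Ier3 too, summed to 12054–15993 CPM in BCAM high, 8357–12866 in BCAM low cells and 9817–12262 CPM in differentiated libraries, and that sum's part in the result was not tested. Against differentiated cells 7 were higher and 2 lower in BCAM high (median 0.24) and 3 and 2 in BCAM low cells (median 0.075), where 41.3% and 33.5% of all genes were called. Fosl1, an AP-1 factor, was higher in both (2.36 and 1.56, adjusted p = 5.32e-06 and 0.00151), as were Emp1, a membrane protein gene (2.09 and 2.01, adjusted p = 2.39e-05 and 4.65e-05), and Egr2 (1.90 and 1.12, adjusted p = 9.99e-07 and 0.00110). The lower genes in BCAM low cells were Etv5, an ETS factor (-1.49, SE 0.45, adjusted p = 0.0117), and Ier3 (-0.75, SE 0.15, adjusted p = 3.03e-04). Those in BCAM high cells were Phlda1 (-0.94, SE 0.28, adjusted p = 0.00874) and Ier2 (-0.78, SE 0.25, adjusted p = 0.0134). Ier3 against differentiated cells, Phlda1 and Ier2 are named after their values were seen. The Emp1 differences depended on the batch (2.45 and 1.46, adjusted p = 3.00e-04 and 0.0169), as did that of Etv5 in BCAM low cells (-2.84, adjusted p = 0.00742).

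**Figure D5:**
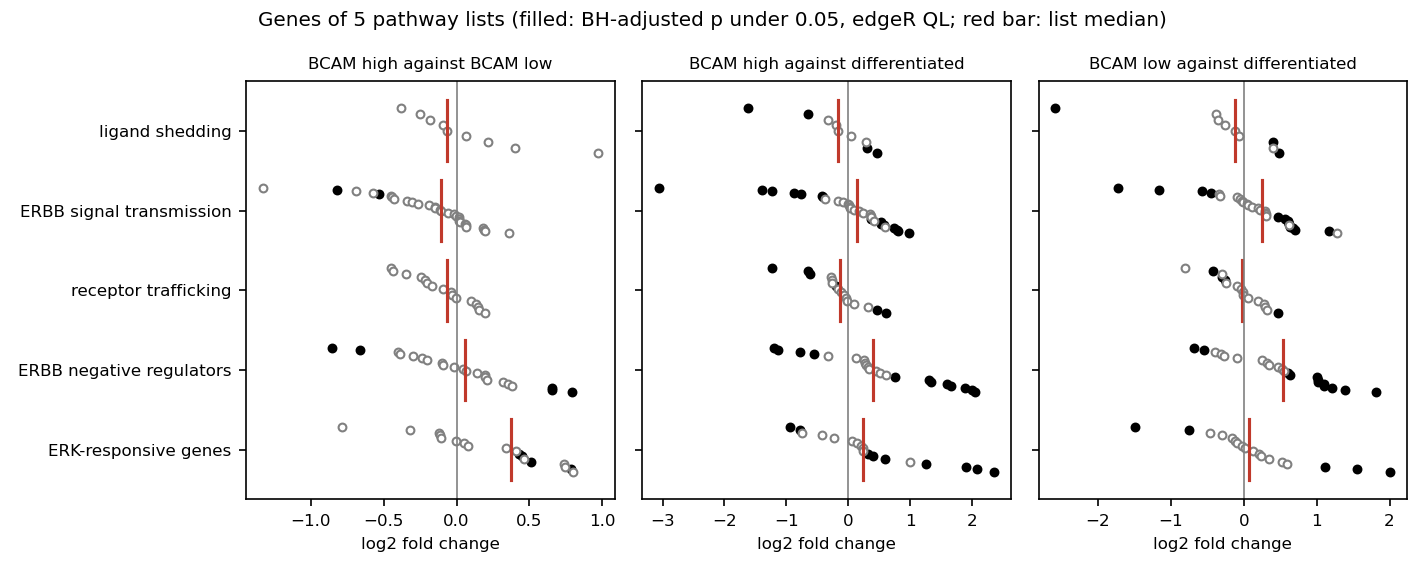
Log2 fold changes of the tested genes of 5 pathway lists in the 3 comparisons, with filled points for adjusted p under 0.05 by edgeR and red bars for list medians. The list medians lie between -0.17 and 0.54. Against differentiated cells each list has called genes on both sides of 0, and between the basal groups only the negative regulators do.

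For each tested member, the genes with the most similar profile over the 24 libraries were found by the root mean square difference of centred log2 CPM, among 9030 genes of at least 10 CPM. The libraries share group and batch, so likeness describes these samples only. Egfr was followed most closely by Plec (0.27), Clip4 (0.27) and Usp53 (0.29), and Plec, which encodes plectin, had mean levels of 589, 471 and 172 CPM in BCAM high, BCAM low and differentiated libraries. Nrg1 was closest to Itgb4, the integrin beta-4 chain of hemidesmosomes (0.65), and Gna15 (0.73), against a spread of 2.02 of Nrg1 itself. Hbegf was closest to Topors (0.25), Ccnd2, a cyclin (0.26), and Mtss1 (0.26). Btc was closest to Sort1 (0.54), Ces1e (0.58) and Gmnn (0.60). Erbb2 was closest to Lasp1, Elovl5 and Fam129b (0.21 each), and Erbb3 to Myo1d (0.22), Eif4g2 (0.23) and Acbd5 (0.23). The nearest genes of Areg were farther away, at 0.77 for Phlda1, which is itself on the ERK-responsive list, 0.82 for Slc5a9 and 0.83 for Mxd1, against a spread of 1.21 of Areg itself. Tgfa was closest to Usp9x (0.40), Plpp2 (0.41) and Uso1 (0.42), against a spread of 0.55.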

How the data were processed

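The authors deposited 1 kallisto table per library, with the estimated count, TPM, length and effective length of each transcript, per the file headers. Kallisto (listed as version 46.1), Picard and build GRCm39 are named by the submitters' processing notes. The 2 x 38-base reads were not reprocessed. Of 117497 transcripts, 116374 matched GENCODE M21 and were summed to 35855 genes; the rest held 0.317–0.594% of the counts. M21 is on another build, so it gave names only. Rounded gene sums were tested with edgeR 4.0.16 (TMM scaling, a filter on low counts by group, robust quasi-likelihood F-test, all 24 libraries, group and batch as terms, R 4.3.3), and dependence on batch with a mean per group and batch. The scripts were tested on simulated data. Alternatives used DESeq2 1.42.0 (its size factors in edgeR, and its Wald test), limma 3.58.1 on log2(TPM + 0.1) and log2(TPM + 1), length offsets, no filter, no batch term, the replicate number as a block, 2 groups only, each batch alone and each library left out. Leaving out the batch 2 differentiated or batch 2 BCAM low libraries was chosen after seeing the data.

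The members and lists were chosen with earlier results of these data known. Beside the members and 6 further family members, the text names called genes of each list by the 4 largest absolute log2 fold changes at a mean of 5 CPM or more, and the 3 nearest profiles of each member at 10 CPM or more with a prior count of 2. Some genes that these rules name are not reported here. Spry2 in the comparison of the basal groups is named because it is among the 4 in another comparison. Floors of 3 counts cover counting error only, since the reads carry no molecular identifiers.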

Additional observations from a re-analysis of the deposited data

Results flagged for a closer look

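In 27 groups of 8 libraries tested for a value far from the others, 2 stood apart, and chance gives about 1 in 20. Nrg1 was at 52.1 CPM in BCAM high replicate 6, with the other 7 BCAM high libraries at 12.0–29.4 CPM. Ereg was at 1.93 CPM in BCAM high replicate 1, from 7 counts, with the others at 0–0.593 CPM.

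In 5 instances the effect of a comparison differed between the batches by the interaction test of edgeR. For Areg in BCAM high against BCAM low cells, batch 2 minus batch 1 was 2.56 on the log2 scale (adjusted p = 0.0381). For Erbb2 it was 0.87 in BCAM high against differentiated cells (adjusted p = 0.00840) and 0.90 in BCAM low against differentiated cells (adjusted p = 0.00503). In the latter comparison Egfr gave -0.73 (adjusted p = 0.0433) and Hbegf -0.84 (adjusted p = 0.0219). Over all tested genes, 1.06%, 8.69% and 11.4% were called in these 3 interaction tests (BCAM high against low, BCAM high against differentiated and BCAM low against differentiated). The meaning of a batch is not given in the labels, and the thyroid, secretory and immune sums of the differentiated libraries move with it.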

How the results depend on the processing

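Leaving out 1 library at a time kept the sign of every member call over both batches. Ranges for values that crossed 0 were -0.017 to 0.14 (Hbegf, BCAM high against low), -0.13 to 0.0055 (Erbb3, BCAM high against differentiated), -0.078 to 0.10 (Erbb2) and -0.21 to 0.025 (Tgfa) in BCAM low against differentiated cells, -0.14 to 0.32 (Nrg1, batch 2 against 1), and for the batch dependence -0.14 to 0.078 (Erbb2, BCAM high against low) and, in BCAM high against differentiated cells, -0.22 to 0.018 (Egfr), -0.26 to 0.041 (Hbegf), -1.59 to 0.71 (Nrg1) and -0.29 to 0.33 (Tgfa). Counts of genes with a batch dependence ranged over 64–166 (BCAM high against low, 129 with all; 69, 68, 64 and 67 without BCAM high replicate 6 or 7 or BCAM low replicate 6 or 7), 720–1513 (1061) and 854–1947 (1388; the lowest without differentiated replicate 7). In BCAM high against low cells, 857 genes became 566 with length offsets, 545 with no batch covariate, 1297 with 2 groups only, 543 in batch 2 alone, 1331 without the batch 2 differentiated and 356 without the batch 2 BCAM low libraries. In BCAM low against differentiated cells, 4086 became 2221 in batch 2 alone. Batch dependence counts became 54, 619 and 766 with length offsets, and the first 267 with no filter. By limma on TPM, 5044 genes in BCAM high against differentiated cells became 7688 (6809 higher, 879 lower) with a pseudocount of 0.1 and 7713 (6812 and 901) with 1, against 2363 and 2681; BCAM low against differentiated gave 4277 and 624 against 1996 and 2090, BCAM high against low 592 and 189 against 297 and 560, and batch 2 against 1 became 1706 (1216 and 490) against 2618 (1444 and 1174). TPM moved the median of all genes by 0.26, 0.75 and 0.48 in the 3 comparisons. On that scale, with pseudocounts of 0.1 and 1, BCAM high against differentiated gave 0.39 and 0.37 for Erbb2, 0.67 and 0.61 for Erbb3 and 0.39 and 0.31 for Tgfa, and BCAM low 0.56 and 0.49 for Tgfa. Other values that changed sign were Erbb3 with no filter (0.025, BCAM high against differentiated); with length offsets, in BCAM low against differentiated cells, Erbb2 (-0.020) and Tgfa (0.27), and in the batch dependence Egfr (-0.045, BCAM high against low), Hbegf (0.054) and Nrg1 (0.68, both BCAM high against differentiated); in batch 1 alone Hbegf (-0.18, BCAM high against low), Erbb2 (-0.28) and Tgfa (0.23, BCAM low against differentiated); in batch 2 alone Tgfa (0.22, BCAM high against low), Erbb2 (0.13) and Erbb3 (0.16, BCAM high against differentiated) and Areg (-0.22, BCAM low against differentiated); without the batch 2 differentiated libraries Erbb2 (-0.27) and Tgfa (0.053, BCAM low against differentiated); and without the batch 2 BCAM low libraries Hbegf (-0.20, BCAM high against low), Erbb2 (-0.12) and Tgfa (0.25, BCAM low against differentiated). The cause was not tested.

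The labels do not say whether same-numbered libraries belong together, and the main fit does not use the number. Deviations from group and batch means correlated at 0.0315–0.176 between same-numbered libraries (median 0.078, 7 of 24 over 0.1). Between other numbers of the same batch they correlated at -0.144 to 0.0743 (median -0.019, 0 of 78 over 0.1). For 23 of 24 libraries the best match in both other groups had their own number. With the number as a replicate block, 864, 5129 and 4136 genes were called, and Erbb3 became called in BCAM high against low (-0.39, adjusted p = 0.0159) and BCAM low against differentiated cells (0.31, adjusted p = 0.0181); it changed no other member's call in the 3 comparisons. Ereg and the 6 further family members were too shallow to test, and the Btc and Nrg1 values near 0 are limited by depth.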
